A study of Saccharomyces cerevisiae with 10 samples.

Results

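The mRNAs of 10 genes of ergosterol synthesis were followed through 5 strains of *S. cerevisiae*: *HMG1*, *ERG9*, *ERG1*, *ERG11*, *ERG25*, *ERG6*, *ERG2*, *ERG3*, *ERG5* and *ERG4*. The members were taken from a named list, as the rows of the count tables whose identifier held the systematic name of the gene. All 10 had a row of their own, among 5376 ORFs and 10431 annotated features in all, and all 10 passed the filter on low counts in every fit. RNA was measured by QuantSeq, which sequences a tag from the 3′ end of polyadenylated transcripts, in 2 independent cultures of each strain grown in YPD-rich medium at 30 °C to an OD600 of 0.8.

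Ergosterol is the main sterol of yeast membranes and holds the place that cholesterol has in animal cells. Its synthesis starts from acetyl-CoA in the mevalonate pathway, passes through squalene and lanosterol, and ends in a series of changes to the sterol rings and side chain that need oxygen, iron and NADPH. The genes are known to be induced when sterols run low, mainly by the transcription factors Upc2 and Ecm22, while Rox1 and Mot3 are known as repressors of some of them, and the pathway is the target of the azole, allylamine and morpholine antifungals.

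A common background was shared by 4 of the strains (MATα *his3-∆200 trp1-∆63 ura3-52* with the double allele *leu2-3* and *leu2-112*), in all of which the chromosomal *RPB1* was deleted (*rpb1-∆187::HIS3*) and the largest subunit of RNA pol II came from a 2µ *LEU2* plasmid. The WT (YFN116) and *rrp6∆* (YFN543) strains carried pYEB220 with *RPB1*, and the *rpb1-84* (YFN519) and *rpb1-84 rrp6∆* (YFN545) strains carried pYEB220-84 with *rpb1-84*, a foot-domain mutation that affects how Rpb4/7 binds the enzyme. *RRP6*, which encodes the nuclear exonuclease of the exosome, was replaced by KanMX4 in *rrp6∆* and in *rpb1-84 rrp6∆*, called the double mutant here. The *rpb1-84* strain alone also had a TAP tag on *RPB4* (*RPB4::TAP::TRP1*). The *rpb4∆* strain (Y01285) had another background, MATa *his3-∆1 leu2-∆0 met15-∆0 ura3-∆0*, with *rpb4∆::kanMX4* and its own chromosomal *RPB1*. The WT libraries served the *rrp6* experiment, and the WT libraries that the study set against *rpb1-84* and *rpb4∆* are not analysed here.

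The libraries held from 1415496 to 7268211 counts. ORFs took 95.4% to 97.5% of the counts in the WT, *rpb1-84* and *rpb4∆* libraries, 73.5% and 74.8% in *rrp6∆* and 81.1% and 81.2% in the double mutant, so levels were scaled on the ORFs alone and each member is measured against the other mRNAs. The 10 members together took between 0.237% and 0.288% of the ORF counts of a library. *RRP6* had 231 and 171 counts in WT, 572 and 548 in the libraries labelled *rrp6∆* and 290 and 176 in those labelled *rpb1-84 rrp6∆*, and because the position of the tags within the gene is not known, the deletion cannot be checked from them. *RPB4* had 7 and 4 counts in the *rpb4∆* libraries and 33 and 59 in the *rpb1-84* libraries, where the gene is tagged, against 508 to 1140 in the others. The mating-type markers of the libraries labelled *rpb4∆* did not bear out the label, though their α-specific sum was also below that of the libraries labelled MATα. The 4 a-specific genes of the marker list (*MFA1*, *MFA2*, *STE2* and *BAR1*) summed to 7 and 4 counts there. The 4 α-specific genes summed to 318 and 225, of which *SAG1* and *STE3* gave all but 1 count in each library. In the 8 libraries labelled MATα the α-specific sum was 2839 to 6914 counts, again carried by *SAG1* and *STE3*, and *MF(ALPHA)1* and *MF(ALPHA)2* had at most 20 counts in any library. How mating type or background bears on the members in the libraries labelled *rpb4∆* was not tested.

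The sterol regulatory element, the sequence TCGTATA that Upc2 and Ecm22 bind, was searched on both strands upstream of every member in the R64 genome. From 250 bases before the start codon to 50 after it, 1 of the 10 members (*ERG2*) held a match, as did 2 of 14 other genes of the pathway and 249 of all 6002 protein-coding genes (4.15%). With 500 bases before the start codon, a window chosen after seeing the data, 5 of the 10 members held a match, beside 3 of the 14 other genes of the pathway (21.4%) and 439 of the 6002 (7.31%). The sites are shown because the element is the known regulatory sequence of the pathway, and its presence was not used to choose the members. Each is written 5′ to 3′ on the strand of its gene, with the element in capitals, and a match is a description of the sequence and not a binding site shown here.
*ERG1*: gtagcgggcctTCGTATAgctcggccgag
*ERG6*: agccccgatctTCGTATAtggtacctcgt
*ERG25*, far site: actgcctccctTCGTATAcgggacacaga
*ERG25*, near site: ggacacagagaTCGTATAcggtaaacgac
*ERG2*: aaccacggcccTCGTATAagccgcaagga
*ERG3*, far site: caaccggggtgTATACGAggccgatggct
*ERG3*, near site: aaaattcaggcTCGTATAagtggcacaat
The *ERG1* site lies at chrVII:848788-848816, 375 bases before the start codon, and the *ERG6* site at chrXIII:253405-253433, 425 bases before it. The *ERG25* sites are at chrVII:610070-610098 and chrVII:610090-610118, 476 and 456 bases before the start codon, and the *ERG2* site is at chrXIII:667341-667369, 178 bases before the start codon. The *ERG3* sites are at chrXII:253524-253552 and chrXII:253564-253592, 319 and 279 bases before it, and the far one reads TATACGA on the gene strand because the element is on the opposite strand. None of the sites lies inside a protein-coding gene, and other kinds of feature were not checked. *HMG1*, *ERG9*, *ERG11*, *ERG5* and *ERG4* had no match in either window, which says only that these 7 letters are not there.

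Levels are given as normalized CPM, the CPM unit with library sizes scaled on the ORFs of all 10 libraries, with replicate 1 first. A 3′ tag count does not depend on transcript length in a known way, so each gene was compared between strains and not with another gene. The counts behind these levels ran from 103 (*ERG5* in a library labelled *rpb4∆*) to 3421 (*ERG11* in *rpb1-84*). A level relative to other mRNAs cannot tell a change of the gene from a change of all mRNAs per cell.

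*HMG1* (YML075C, chromosome XIII, 115734 to 118898 on the minus strand) encodes the main HMG-CoA reductase, the rate-limiting enzyme of the mevalonate pathway. Its normalized CPM was 82.0 and 87.2 in WT, 100.2 and 106 in *rrp6∆*, 86.7 and 83.5 in the double mutant, 74.8 and 81.4 in *rpb1-84* and 81.5 and 86.6 in *rpb4∆*. Both *rrp6∆* libraries were above all others, and the remaining strains lay close together, with WT overlapping both *rpb4∆* and the double mutant. The strain means ran from 78.1 ± 4.66 (SD, n = 2) in *rpb1-84* to 103 ± 3.96 in *rrp6∆*, the narrowest range of the 10 members at 1.32 times.

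*ERG9* (YHR190W, chromosome VIII, 484845 to 486179 on the plus strand) encodes squalene synthase, the first enzyme of the pathway committed to sterols. Its normalized CPM was 123 and 109.6 in WT, 124 and 133 in *rrp6∆*, 246 and 243.5 in the double mutant, 365 and 278 in *rpb1-84* and 255 and 238 in *rpb4∆*. All 4 libraries with the *rpb1-84* plasmid, and both labelled *rpb4∆*, were above all 4 of WT and *rrp6∆*. The means ran from 116 ± 9.43 (SD, n = 2) in WT to 321 ± 62.0 in *rpb1-84*, 2.76 times, and the double mutant and *rpb4∆* overlapped.

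*ERG1* (YGR175C, chromosome VII, 846933 to 848423 on the minus strand) encodes squalene epoxidase, the target of the allylamines. Its normalized CPM was 179.6 and 178 in WT, 113.5 and 142 in *rrp6∆*, 134 and 145 in the double mutant, 415 and 362 in *rpb1-84* and 284 and 272.5 in *rpb4∆*. Its range was the widest of the 10 members, 3.05 times, from a mean of 128 ± 20 (SD, n = 2) in *rrp6∆* to 389 ± 37.6 in *rpb1-84*. The *rrp6∆* and double mutant libraries overlapped, and no other neighbours in the order did. *ERG1* thus stood high in *rpb1-84*, like *ERG9*, but low in the double mutant, where *ERG9* stood high.

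*ERG11* (YHR007C, chromosome VIII, 120091 to 121683 on the minus strand) encodes the cytochrome P450 that demethylates lanosterol, the target of the azoles. Its normalized CPM was 592.5 and 613 in WT, 569 and 468 in *rrp6∆*, 571 and 567 in the double mutant, 409 and 439 in *rpb1-84* and 501 and 514 in *rpb4∆*. The *rpb1-84* libraries were below all others (mean 424 ± 21.4, SD, n = 2), and the WT libraries above all others (603 ± 14.5). The *rrp6∆* libraries were far apart and overlapped both *rpb4∆* and the double mutant.

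*ERG25* (YGR060W, chromosome VII, 610564 to 611493 on the plus strand) encodes the sterol methyl oxidase that starts the removal of the methyl groups left after Erg11. Its normalized CPM was 220.2 and 212 in WT, 218 and 201 in *rrp6∆*, 188 and 193.5 in the double mutant, 102 and 101 in *rpb1-84* and 167 and 194 in *rpb4∆*. The *rpb1-84* mean (102 ± 0.612, SD, n = 2) was the lowest and the WT mean (216 ± 5.83) the highest, 2.13 times apart. WT and *rrp6∆* overlapped, as did *rpb4∆* and the double mutant.

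*ERG6* (YML008C, chromosome XIII, 251839 to 252990 on the minus strand), *ERG2* (YMR202W, chromosome XIII, 667537 to 668205 on the plus strand) and *ERG3* (YLR056W, chromosome XII, 253861 to 254958 on the plus strand) encode the methyltransferase, isomerase and desaturase that follow one another in the late pathway. *ERG6* had a normalized CPM of 224 and 248 in WT, 206 and 207.5 in *rrp6∆*, 285 and 247 in the double mutant, 264 and 233 in *rpb1-84* and 368.5 and 380.5 in *rpb4∆*. *ERG2* had 248.5 and 265 in WT, 168 and 184 in *rrp6∆*, 240.1 and 266 in the double mutant, 258 and 206 in *rpb1-84* and 333 and 414 in *rpb4∆*. *ERG3* had 329 and 319 in WT, 239.5 and 221 in *rrp6∆*, 235 and 249.7 in the double mutant, 338.5 and 319 in *rpb1-84* and 477 and 512 in *rpb4∆*. These 3 were the members whose level was lowest in *rrp6∆* and highest in *rpb4∆*. For *ERG6* and *ERG2* the *rrp6∆* libraries were below all others, WT, *rpb1-84* and the double mutant overlapped along the order and the libraries labelled *rpb4∆* stood above, while for *ERG3* the double mutant overlapped *rrp6∆* and *rpb1-84* overlapped WT. The means of the libraries labelled *rpb4∆* were 374.5 ± 8.55 (SD, n = 2) for *ERG6*, 374 ± 57.1 for *ERG2* and 495 ± 24.6 for *ERG3*.

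*ERG5* (YMR015C, chromosome XIII, 300869 to 302485 on the minus strand) encodes the cytochrome P450 that desaturates the side chain, and *ERG4* (YGL012W, chromosome VII, 472855 to 474276 on the plus strand) the reductase of the last step. *ERG5* had a normalized CPM of 92.2 and 78.9 in WT, 85.3 and 79.4 in *rrp6∆*, 74.9 and 73.8 in the double mutant, 38.1 and 43.7 in *rpb1-84* and 71.2 and 73.7 in *rpb4∆*. *ERG4* had 188 and 192 in WT, 155 and 155 in *rrp6∆*, 194 and 189.8 in the double mutant, 92.8 and 115 in *rpb1-84* and 154 and 154 in *rpb4∆*. Both were lowest in *rpb1-84*, at a mean of 40.9 ± 3.95 (SD, n = 2) for *ERG5* and 104 ± 15.6 for *ERG4*. At the top of the order WT overlapped *rrp6∆* for *ERG5* and the double mutant for *ERG4*, and no other neighbours overlapped. The plot of levels by library shows the same values.

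**Figure D1:**
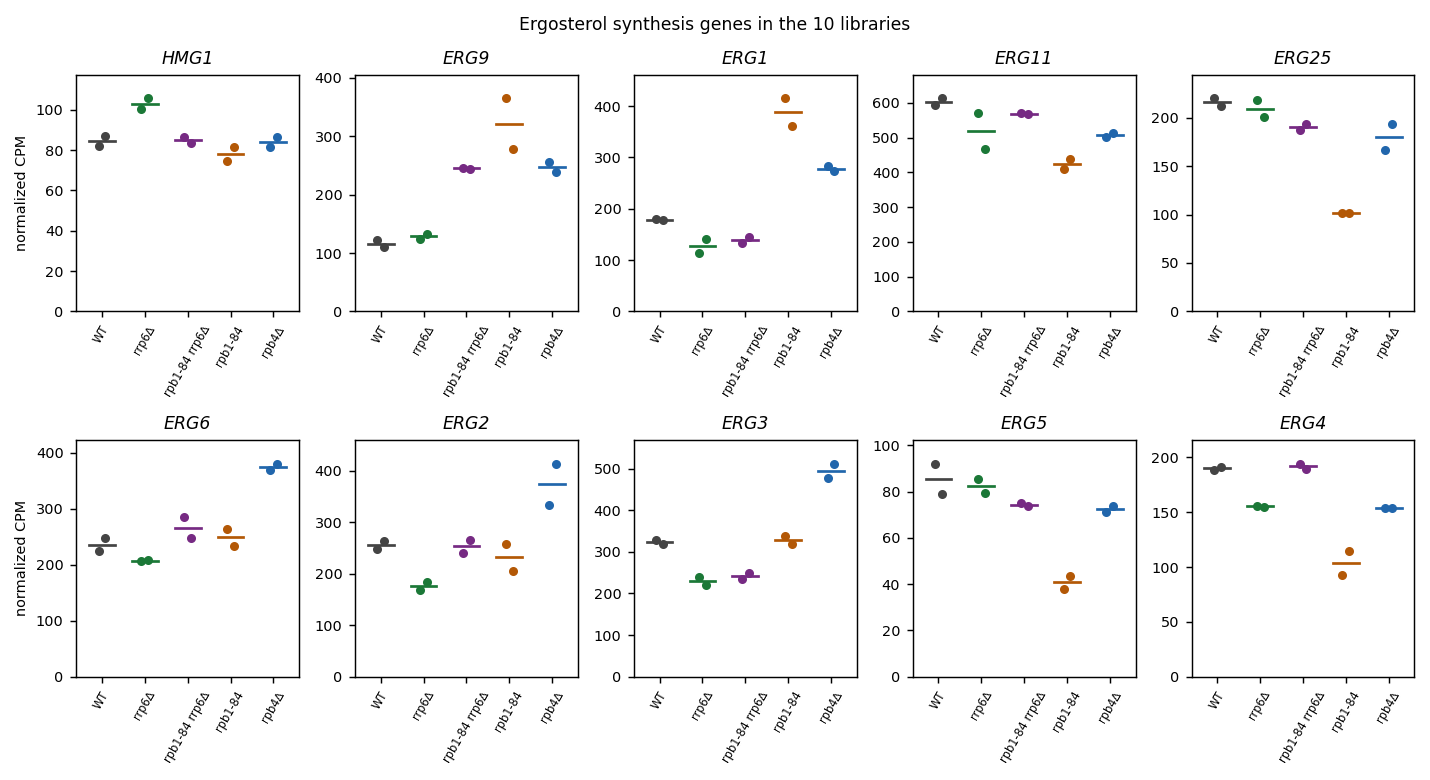
Normalized CPM (scaled on ORFs, on a linear axis from 0 with a scale for each gene) of the 10 ergosterol synthesis genes in the 10 libraries. Points are libraries and bars the mean of the 2 replicates of a strain. *ERG9* was between 109.6 and 133 in WT and *rrp6∆* and between 238 and 365 elsewhere, and *ERG25*, *ERG5* and *ERG4* were lowest in *rpb1-84*.

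The first comparison asked how the loss of *RRP6* changed these mRNAs in cells with the *RPB1* plasmid. The mRNA of *RPB1* (YDL140C) was itself higher in *rrp6∆* than in WT, by 0.97 on the log2 scale (SE 0.0854, adjusted p = 9.89e-12 by edgeR's quasi-likelihood test). Mean *RPB1* levels were 2219 normalized CPM in WT, 4354 in *rrp6∆*, 4290 in the double mutant, 2810 in *rpb1-84* and 281 in *rpb4∆*. How these levels bear on the members was not tested. In the libraries labelled *rrp6∆*, 6 members were lower than in WT and 1 was higher, all by less than 2-fold. The fall was largest for *ERG2*, at −0.54 on the log2 scale (SE 0.0915, adjusted p = 4.73e-06 by edgeR's quasi-likelihood test, n = 2 per strain), followed by *ERG3* at −0.49 (SE 0.0869, adjusted p = 9.66e-06) and *ERG1* at −0.48 (SE 0.101, adjusted p = 9.54e-05). *ERG4* fell by 0.29 (adjusted p = 0.00545), *ERG11* by 0.21 (adjusted p = 0.0356) and *ERG6* by 0.19 (95% interval −0.375 to 0.001, adjusted p = 0.0765). *HMG1* rose by 0.29 (SE 0.101, adjusted p = 0.014). *ERG25* (−0.04, 95% interval −0.22 to 0.14), *ERG5* (−0.06, −0.28 to 0.16) and *ERG9* (0.14, −0.06 to 0.34) did not pass the test. A member was counted as past the test at an adjusted p below 0.1, the threshold of the study, with p-values adjusted over the 9197 features tested. In the same test 26.6% of the 5178 ORFs were lower and 27.0% higher, and 1.35% were lower and 7.55% higher by 2-fold as well, while over all features 15.3% were lower and 53.7% higher. The median of the members was −0.20, beside 0.001 for all ORFs and 0.48 for all features.

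The split of the members, 6 lower and 1 higher, depended on the scaling. With factors from all features the median ORF moved to −0.49, all 10 members were lower and none was higher, with *HMG1* at −0.20 and *ERG9* at −0.34. Read against the median ORF, 8 members were below it and 2 above it under either scaling. A change of factors moves every feature by about the same amount, so this count could hardly differ and is no check of the split. *ERG6* was not called by DESeq2 (adjusted p = 0.173) or by edgeR in 1 fit of all 10 libraries (adjusted p = 0.107). The calls of *ERG6*, *ERG11* and *HMG1* were lost when single libraries were left out. Without WT replicate 2 *ERG6* was at −0.12 (adjusted p = 0.408) and *ERG11* at −0.20 (adjusted p = 0.142), which left 4 members lower, and without *rrp6∆* replicate 1 *ERG6* was at −0.18 (adjusted p = 0.131). Without *rrp6∆* replicate 2 *ERG11* was at −0.08 (adjusted p = 0.383), and without WT replicate 1 *HMG1* was at 0.24 (adjusted p = 0.137).

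The second comparison set the double mutant against the same WT libraries, so that both comparisons share them. *ERG9* was the only member called higher, by 1.06 on the log2 scale or 2.08-fold (SE 0.0949, adjusted p = 2.2e-11 by edgeR), and the only one beyond 2-fold. *ERG3* fell by 0.43 (SE 0.0874, adjusted p = 7.32e-05) and *ERG1* by 0.37 (SE 0.101, adjusted p = 0.00198), and *ERG5* (−0.22, adjusted p = 0.0863) and *ERG25* (−0.19, adjusted p = 0.0623) were lower by smaller amounts. *ERG2* and *ERG4*, both lower in *rrp6∆*, were at −0.03 (95% interval −0.22 to 0.15) and 0.006 (−0.18 to 0.19), and *HMG1* was at 0.00 (−0.21 to 0.21). *ERG6* (0.17, adjusted p = 0.118) and *ERG11* (−0.09, adjusted p = 0.372) did not pass the test either. Of the ORFs, 28.6% were higher and 28.3% lower in this comparison, 6.99% and 2.65% by 2-fold as well, and of all features 48.9% were higher and 17.1% lower. The members had a median of −0.06, the ORFs of 0.002 and all features of 0.37. The 2-fold mark for *ERG9* was not met without WT replicate 2 (0.98) or with factors from all features (0.72), but its adjusted p stayed past the test in each. The calls of *ERG5* and *ERG25* were lost with DESeq2 (adjusted p = 0.236 and 0.15), without WT replicate 1 (0.608 and 0.27) and without double mutant replicate 1 (0.176 and 0.231), each of which left 2 members lower in place of 4. That of *ERG25* was also lost without WT replicate 2 (adjusted p = 0.112) and that of *ERG5* without double mutant replicate 2 (0.182). *ERG6* was called higher without double mutant replicate 2 (0.26) or without either *rrp6∆* replicate, which gave 2 members higher. Factors from all features moved the median ORF to −0.34 and gave 9 members lower.

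The third comparison asked what *rpb1-84* changed where *RRP6* was deleted, with the double mutant set against *rrp6∆*. Here 4 members were higher and 1 was lower. *ERG9* rose by 0.92 on the log2 scale, 1.89-fold (SE 0.0893, adjusted p = 1.04e-09 by edgeR), and stood 78th from the top among the 5178 ORFs. *ERG2* rose by 0.51 (SE 0.0895, adjusted p = 2.77e-05), *ERG6* by 0.35 (SE 0.0892, adjusted p = 0.00183) and *ERG4* by 0.29 (SE 0.0864, adjusted p = 0.00643), which are 3 of the genes that were lower in *rrp6∆* than in WT. The *rrp6∆* libraries enter both comparisons, so that these values are not independent of the fall described above. *HMG1* fell by 0.29 (SE 0.096, adjusted p = 0.0159), a call not made by DESeq2 (adjusted p = 0.11). *ERG1* (0.11), *ERG3* (0.06), *ERG11* (0.12), *ERG5* (−0.16) and *ERG25* (−0.15) did not pass the test. Of the ORFs 24.4% were higher and 24.0% lower, 1.10% and 2.99% by 2-fold as well, and of all features 16.6% were higher and 35.1% lower. The median was 0.12 for the members, −0.007 for the ORFs and −0.17 for all features. With factors from all features the median ORF was at 0.14, 7 members were higher and none was lower. The plot of the 3 comparisons shows *ERG9* apart from the other members in both comparisons of the double mutant.

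**Figure D2:**
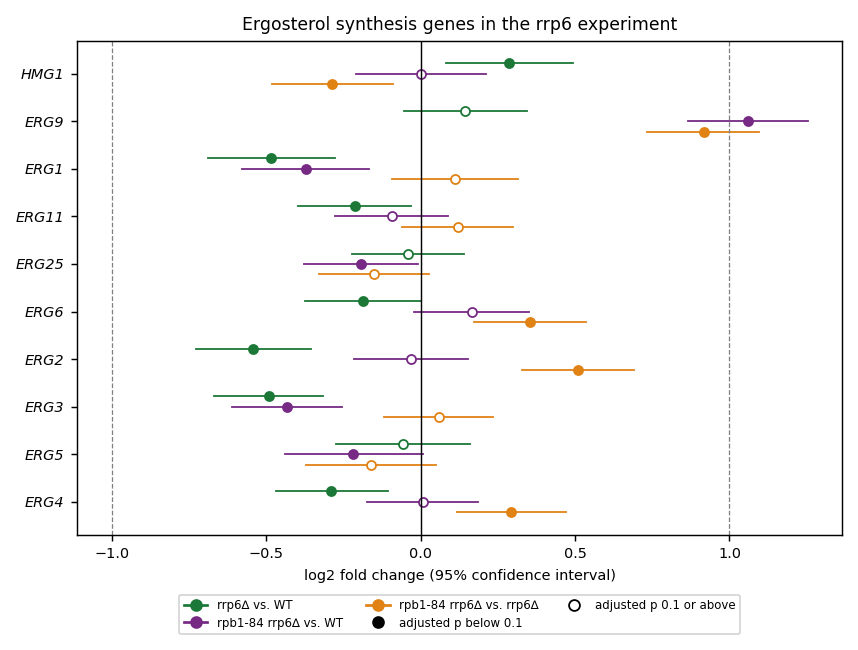
Log2 fold changes of the 10 genes in the 3 comparisons of the *rrp6* experiment, with 95% confidence intervals from edgeR (6 libraries, n = 2 per strain). Filled points have an adjusted p below 0.1, open points do not, and dashed lines mark 2-fold. *ERG9* lies at 1.06 and 0.92 in the comparisons of the double mutant and at 0.14 in *rrp6∆* against WT.

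The libraries of *rpb1-84* were set against the same WT and against the double mutant in a fit of 8 libraries. In these comparisons the mutation, the TAP tag on *RPB4* and the separate experiment cannot be told apart. In *rpb1-84* against WT 2 members were higher, 4 were lower and 4 did not pass the test. *ERG9* was higher by 1.46 on the log2 scale, 2.75-fold (SE 0.112, adjusted p = 4.11e-14 by edgeR), and *ERG1* by 1.12, 2.17-fold (SE 0.104, adjusted p = 7.52e-12). Below WT were *ERG25* at −1.08 (SE 0.1, adjusted p = 6.45e-12), *ERG5* at −1.04 (SE 0.123, adjusted p = 2.36e-09), *ERG4* at −0.85 (SE 0.106, adjusted p = 9.24e-09) and *ERG11* at −0.50 (SE 0.0968, adjusted p = 3.21e-05). *ERG6* (0.08, 95% interval −0.12 to 0.28), *ERG3* (0.02, −0.17 to 0.21), *HMG1* (−0.10, −0.32 to 0.13) and *ERG2* (−0.15, −0.36 to 0.06) did not pass the test. Calls were common in this comparison: 36.0% of the 5206 ORFs were higher and 35.9% lower, 14.8% and 16.5% by 2-fold as well. The members had a median of −0.12 and all ORFs of −0.006. The 2-fold mark for *ERG5* was not met without WT replicate 1 (−0.91) or *rpb1-84* replicate 1 (−0.96), and with factors from all features neither *ERG5* (−0.89) nor *ERG25* (−0.93) met it.

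Against *rpb1-84*, the double mutant had *ERG1* lower, at −1.49 on the log2 scale (SE 0.104, adjusted p = 9.3e-16 by edgeR), the only member beyond 2-fold. *ERG3* (−0.46, adjusted p = 3.94e-05) and *ERG9* (−0.40, adjusted p = 0.000686) were lower too, with *ERG9* at −0.21 without *rpb1-84* replicate 1 and −0.58 without replicate 2, still past the test. The 4 genes that were below WT in *rpb1-84* were higher in the double mutant, *ERG25* by 0.89 (SE 0.0986, adjusted p = 2.77e-10), *ERG4* by 0.85 (SE 0.103, adjusted p = 2.21e-09), *ERG5* by 0.83 (SE 0.119, adjusted p = 1.03e-07) and *ERG11* by 0.40 (SE 0.096, adjusted p = 0.000282). The *rpb1-84* libraries are shared by both comparisons, so that a gene low in them is high in this one. *ERG2* (0.12), *HMG1* (0.10) and *ERG6* (0.09) did not pass the test. Of the ORFs 38.1% were higher and 37.6% lower, 17.1% and 12.0% by 2-fold as well. The median of the members was 0.11 and that of all ORFs 0.001. With factors from all features the median ORF moved to −0.49 and 6 members were lower, *ERG2* (−0.37), *ERG6* (−0.40) and *HMG1* (−0.39) among them, while *ERG11* was at −0.09 and not past the test.

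**Figure D3:**
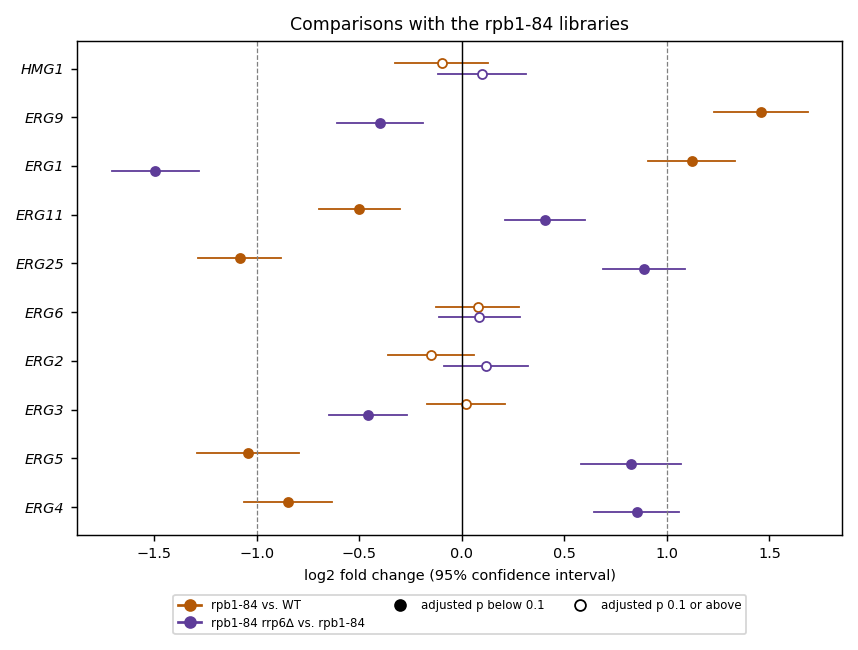
Log2 fold changes of the 10 genes in *rpb1-84* against WT and in the double mutant against *rpb1-84*, with 95% confidence intervals from edgeR (8 libraries, n = 2 per strain). Filled points have an adjusted p below 0.1, open points do not, and dashed lines mark 2-fold. *ERG9* and *ERG1* lie at 1.46 and 1.12 in *rpb1-84* against WT and at −0.40 and −1.49 in the double mutant against *rpb1-84*.

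The effect of losing *RRP6* was then compared between the 2 forms of Rpb1, as the difference between the double mutant against *rpb1-84* and *rrp6∆* against WT. This difference was higher for 5 members and lower for 2, beside 30.2% of the ORFs higher and 30.7% lower. It was 1.14 for *ERG4* (SE 0.146, adjusted p = 3.23e-08 by edgeR), which fell by 0.29 in *rrp6∆* against WT and was 0.85 higher in the double mutant against *rpb1-84*. It was −1.01 for *ERG1* (SE 0.15, adjusted p = 6.58e-07), lower in both contrasts and more so in the second. *ERG3* fell by nearly the same amount in both, and its difference was 0.04 (95% interval −0.23 to 0.31, adjusted p = 0.843). *ERG6* (0.28, adjusted p = 0.109) and *HMG1* (−0.19, adjusted p = 0.33) did not pass the test. Only 1 of the 4 strains came from the separate experiment and carried the tag, so that these cannot be told apart from the interaction.

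In the libraries labelled *rpb4∆* only levels can be given. Of the 10 members 3 were highest in this strain (*ERG6*, *ERG2* and *ERG3*) and none was lowest. *ERG9* and *ERG1* (means 247 ± 12.2 and 278 ± 7.98 normalized CPM, SD, n = 2) lay between the WT and *rpb1-84* levels. By their means, *ERG4*, *ERG5*, *ERG11*, *ERG25* and *HMG1* were second lowest of the 5 strains, above *rpb1-84*. The next strain up overlapped for *HMG1* (WT), *ERG11* (*rrp6∆*) and *ERG25* (the double mutant). For *ERG4* and *ERG5* it was barely higher, at 155.1 against 153.8 and 73.78 against 73.68 normalized CPM for the nearest libraries. Background, mating type and the deletion cannot be told apart in these values.

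The members did not share a profile over the 10 libraries. Pearson's r of the log2 levels ran from −0.825 for *ERG1* and *ERG25* to 0.982 for *ERG5* and *ERG25*, with 2 replicates of each strain among the 10 points. *ERG5*, *ERG25*, *ERG4* and *ERG11* varied together (r between 0.837 and 0.982), as did *ERG2*, *ERG6* and *ERG3* (r between 0.802 and 0.904). *HMG1* ran against the mean of the members (r = −0.399), and *ERG2* was nearest to it (r = 0.959), followed by *ERG6* (0.921) and *ERG3* (0.818). The other members followed the mean weakly, with r from 0.174 (*ERG25*) to 0.298 (*ERG1*), though each member is itself part of the mean. A profile like the mean is therefore not like that of most members. Outside the list, the ORFs with a profile most like the mean of the members, among 3775 with at least 20 counts in every library, were YDL085C-A (r = 0.983), *PRO1* (0.979), *RPL33A* (0.975), *CAR1* (0.975) and *RPL24A* (0.973). All 5 were highest in the libraries labelled *rpb4∆*: YDL085C-A had 103 and 109 normalized CPM there and 31.9 to 53.4 in the others. With factors from all features none of the 5 was among the nearest 5.

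Among the other 14 genes of the pathway, 7 were lower and 4 higher in *rrp6∆* against WT (median −0.21, range −0.65 to 0.62), beside 26.6% and 27.0% of the ORFs. In the double mutant against WT 5 were lower and 6 higher (median 0.11, range −0.97 to 0.99), beside 28.3% and 28.6%. In the double mutant against *rrp6∆* 8 were higher and 3 lower (median 0.27), beside 24.4% and 24.0%, and none of the 14 was called by 2-fold in these 3 comparisons. In *rpb1-84* against WT 10 were higher and 3 lower (median 0.72), beside 36.0% and 35.9% of the ORFs, and 6 and 2 of them by 2-fold, beside 14.8% and 16.5%. In the double mutant against *rpb1-84* 4 were higher and 10 lower (median −0.66), beside 38.1% and 37.6%. *ERG20*, which encodes farnesyl pyrophosphate synthase, had 15 and 13 counts in *rpb1-84*, 121 and 93 in WT, 284 and 271 in *rrp6∆*, 266 and 263 in the double mutant and 39 and 20 in *rpb4∆*. It was thus far lower in both *rpb1-84* libraries than in any of WT, at −3.78 on the log2 scale (SE 0.257, adjusted p = 1.4e-15), and higher in the double mutant than in *rpb1-84* by 4.54 (SE 0.226, adjusted p = 3.3e-20). *ERG7*, which encodes lanosterol synthase, was at −1.78 and 1.45 in the same comparisons (adjusted p = 9.64e-07 and 9.97e-06) on 21 to 66 counts per library. *MVD1*, of the mevalonate pathway, was at 1.36 and −1.32, and *HMG2*, the second HMG-CoA reductase, was 1.25 higher in *rpb1-84* than in WT. *NCP1*, the reductase that serves the P450 enzymes, and *ERG10*, the first enzyme of the pathway, were lower in the double mutant than in *rpb1-84*, at −1.34 and −1.24. *IDI1* (1.20), *ERG24* (1.19), *ERG28* (1.14) and *ERG12* (1.12) were also higher by 2-fold in *rpb1-84* than in WT. *ERG20*, which makes the substrate of Erg9, was thus low in the *rpb1-84* libraries, where *ERG9* and these genes were high. Any relation between them was not tested, and the mutation, the TAP tag and the separate experiment cannot be told apart here either.

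Of 7 regulators, 6 were tested and *HAP1* is not analysed here. *UPC2*, whose product binds the element shown above, had 43 and 47 counts in WT, 107 and 88 in *rrp6∆*, 30 and 41 in the double mutant, 28 and 64 in *rpb1-84* and 26 and 12 in *rpb4∆*. Both *rrp6∆* libraries were above all others when scaled (20.1 and 16.8 normalized CPM, against 5.81 to 16.2). The difference between *rrp6∆* and WT did not pass the test (0.36 on the log2 scale, adjusted p = 0.153 by edgeR). Against WT, *UPC2* was lower in the double mutant (−0.90, adjusted p = 0.00346) and in *rpb1-84* (−0.85, adjusted p = 0.0039). *UPC2* was lower in the double mutant than in *rrp6∆*, at −1.26 on the log2 scale (SE 0.227, adjusted p = 3.87e-05 by edgeR), the only regulator called by 2-fold in any of the 5 comparisons of strains. In that comparison the 5 members that hold the element in the window chosen after seeing the data were at 0.51 (*ERG2*), 0.35 (*ERG6*), 0.11 (*ERG1*), 0.06 (*ERG3*) and −0.15 (*ERG25*), of which *ERG2* and *ERG6* passed the test, and any relation to *UPC2* was not tested. Of the 6 regulators 3 were higher and 1 lower in *rrp6∆* than in WT (median 0.31), beside 27.0% and 26.6% of the ORFs, and 2 higher and 1 lower in the double mutant than in WT (median 0.07), beside 28.6% and 28.3%. None was higher and 3 were lower in the double mutant than in *rrp6∆* (median −0.16), beside 24.4% and 24.0%. In *rpb1-84* against WT 2 were higher and 2 lower (median 0.06), beside 36.0% and 35.9%, and in the double mutant against *rpb1-84* 2 were higher and 1 lower (median 0.05), beside 38.1% and 37.6%. The repressor genes *MOT3* and *ROX1* were among those higher in *rrp6∆* than in WT, at 0.85 (adjusted p = 2.66e-06 by edgeR) and 0.73 (adjusted p = 0.000131). In the double mutant against WT they were at 0.58 (adjusted p = 0.000792) and 0.72 (adjusted p = 0.000201). Any relation of *MOT3* and *ROX1* to the members was not tested. *ECM22* shares its row with a neighbouring repeat element, so that its counts may hold reads of both.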

How the data were processed

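Polyadenylated RNA was measured by QuantSeq 3′ mRNA-Seq in 10 libraries. The authors checked reads with FastQC, clipped adapters, mapped them with HISAT2 to the R64 assembly of S288C and deposited featureCounts counts per feature, without normalization; tool versions, strand setting and the treatment of overlapping features are not given in the sources used here. Without a known strand setting, reads of a gene and of an antisense transcript cannot be told apart. Here counts were fitted in R 4.3.3 with edgeR 4.0.16 (filterByExpr, TMM factors from ORFs, quasi-likelihood test), over 6 libraries for the *rrp6* experiment and 8 with *rpb1-84*, with Benjamini-Hochberg adjustment over all features tested. Calls used an adjusted p below 0.1, and 2-fold calls also an absolute log2 fold change above 1. The biological coefficient of variation was 0.0603 and 0.0665. Replicates of a strain differed by 1.46 to 5.01 chi-square per feature, so none was an identical copy of the other. The low value, in WT, would not tell separate cultures from the same RNA sequenced again. Alternatives were TMM factors from all features, DESeq2 (1.42.0) and its size factors, library totals, no filter, other sets of libraries, a replicate block and each library left out. The text names all 10 members and, from lists of other pathway genes, regulators, and sterol ester and uptake genes, those called by 2-fold, at most 6 a comparison by size, with the 5 ORFs of the most similar profile over libraries. Exceptions, named after their values were seen, are given with the count they belong to. Members and lists were chosen with earlier results of these data known. Figures were drawn with matplotlib 3.10.9 in Python 3.11.15. The fits were first run on simulated counts with as many ORFs raised as lowered, the same spread in every strain and no shift of ncRNAs. That run is therefore no check of the scaling or of strains whose replicates differ more.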

Additional observations from a re-analysis of the deposited data

Results flagged for a closer look

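For 7 of the 10 genes the effect of losing *RRP6* differed between cells with *rpb1-84* and cells with *RPB1*. The test was the interaction term of edgeR's quasi-likelihood fit over 8 libraries (n = 2 per strain). The log2 difference was 1.142 for *ERG4* (adjusted p = 3.23e-08), 0.932 for *ERG25* (adjusted p = 5.47e-07), 0.883 for *ERG5* (adjusted p = 3.07e-05), 0.66 for *ERG2* (adjusted p = 0.000278) and 0.62 for *ERG11* (adjusted p = 0.000262). It was −1.008 for *ERG1* (adjusted p = 6.58e-07) and −0.543 for *ERG9* (adjusted p = 0.00407). All 7 kept their direction and their call with each library left out in turn. The *rpb1-84* libraries came from a separate experiment and carry the TAP tag on *RPB4*, which cannot be told apart from the interaction, and 30.2% of the ORFs were higher and 30.7% lower in the same test.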

How the results depend on the processing

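Most changes came with the scaling. With TMM factors from all features and with DESeq2 size factors, 10 members were lower and 0 higher in *rrp6∆* against WT, 9 were lower in the double mutant against WT, 0 lower against *rrp6∆* (7 higher with the former) and 6 lower against *rpb1-84*. Signs turned, in that order of settings, for *ERG9* (−0.341, −0.333) and *HMG1* (−0.199, −0.191) in *rrp6∆* against WT, *ERG4* (−0.335, −0.356) and *ERG6* (−0.176, −0.196) in the double mutant against WT, *HMG1* in *rpb1-84* against WT (0.052, 0.028), and *ERG2* (−0.37, −0.396), *ERG6* (−0.402, −0.426), *ERG11* (−0.085, −0.108) and *HMG1* (−0.393, −0.415) in the double mutant against *rpb1-84*. Library totals left 0 members higher in *rrp6∆* and turned *ERG9* there (−0.026), *ERG4* in the double mutant against WT (−0.159) and *ERG2* (−0.048), *ERG6* (−0.078) and *HMG1* (−0.066) against *rpb1-84*. DESeq2, and 1 fit of all 10 libraries, gave 2 members lower in the double mutant against WT, and DESeq2 0 lower against *rrp6∆*. Fitting the 4 libraries compared gave 2 higher in the double mutant against WT. With factors from all features 0 of the 5 similar ORFs remained, and a window of 500 bases gave 5 members with the element.

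With single libraries left out, members higher and lower numbered 0 to 1 and 4 to 6 in *rrp6∆* against WT, 1 to 2 and 2 to 4 in the double mutant against WT, 4 to 5 and 1 to 2 against *rrp6∆*, 2 to 2 and 4 to 5 in *rpb1-84* against WT, 4 to 5 and 3 to 3 in the double mutant against *rpb1-84*, and 5 to 6 and 2 to 2 for the interaction. Signs turned for values that had not passed the test with all libraries: *ERG25* (−0.101 to 0.012) and *ERG5* (−0.169 to 0.064) in *rrp6∆* against WT, *ERG2* (−0.113 to 0.045), *ERG4* (−0.009 to 0.016) and *HMG1* (−0.043 to 0.036) in the double mutant against WT, *ERG1* (−0.044 to 0.281) and *ERG11* (−0.012 to 0.266) against *rrp6∆*, *ERG2* (−0.033 to 0.264) and *ERG6* (−0.019 to 0.173) against *rpb1-84*, and *ERG3* in *rpb1-84* against WT (−0.005 to 0.061) and the interaction (−0.005 to 0.113). Of these, *ERG1* and *ERG11* against *rrp6∆* and *ERG2* against *rpb1-84* passed the test at the upper end. A replicate block changed none of the 60 member results, with 6 lower and 1 higher in *rrp6∆* against WT as before. Replicates of the same number did not deviate together (correlations −0.137 to 0.072), so the numbers were not taken as pairs. With 2 cultures per strain, small differences could not be resolved.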

Other observations

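Among 9 genes of sterol esters, sterol uptake and P450 partners, *ARE1* had too few counts to be tested. Of the other 8, 2 were higher and 2 lower in *rrp6∆* against WT (median 0.06), beside 27.0% and 26.6% of the ORFs, and 2 and 3 in the double mutant against WT (median 0.05), beside 28.6% and 28.3%. Against *rrp6∆* 1 was higher and 1 lower (median 0.01), beside 24.4% and 24.0%. In *rpb1-84* against WT 4 were higher and 1 lower (median 0.23), beside 36.0% and 35.9%, and in the double mutant against *rpb1-84* 3 and 3 (median −0.15), beside 38.1% and 37.6%. *PDR11*, which encodes a transporter of sterol uptake, had 13 and 11 counts in WT, 23 and 19 in *rrp6∆*, 59 and 39 in the double mutant, 46 and 85 in *rpb1-84* and 14 and 10 in the libraries labelled *rpb4∆*. All 4 libraries with the *rpb1-84* plasmid were above the others when scaled, at 9.69 to 12.2 normalized CPM against 3.63 to 7.22. *PDR11* was higher in the double mutant by 1.45 on the log2 scale against WT (SE 0.311, adjusted p = 0.000157 by edgeR) and 1.40 against *rrp6∆* (SE 0.268, adjusted p = 8.75e-05), and in *rpb1-84* by 1.57 against WT (SE 0.303, adjusted p = 3e-05). *AUS1*, which encodes the other transporter of sterol uptake, was at −0.53 in the double mutant against WT (adjusted p = 0.0535), −0.60 in *rrp6∆* against WT (adjusted p = 0.0262), 0.07 in the double mutant against *rrp6∆* (adjusted p = 0.835) and 0.18 in *rpb1-84* against WT (adjusted p = 0.504). *CYB5*, an electron donor in sterol synthesis, had 88 and 176 counts in *rpb1-84* and 242 and 194 in WT, −1.60 on the log2 scale (SE 0.133, adjusted p = 3.43e-13), and was 1.30 higher in the double mutant than in *rpb1-84* (SE 0.13, adjusted p = 2.06e-11). The TAP tag and the separate experiment of *rpb1-84* bear on these values as on those of the members.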
